A study of Homo sapiens with 12 samples.

Results

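The proteasome genes of human prostate cells were described across 12 arrays in 6 groups. They were taken by symbol: 43 genes carry a PSMA, PSMB, PSMC, PSMD, PSME, PSMF or PSMG symbol with a number in the value tables of both cell lines, out of 16251 genes that both tables hold. Of these, 41 encode proteasome subunits, activators, inhibitors or assembly chaperones. PSMC3IP and PSME3IP1 match by symbol, encode proteins named for binding a proteasome component, and were set apart. The 41 genes fall into 7 of the alpha ring, 7 of the beta ring, 3 immunoproteasome subunits, 5 ATPases of the base, 8 non-ATPase subunits of the regulatory particle, 3 assembly chaperones of that particle, 4 activators, 1 inhibitor and 3 assembly chaperones of the core. PSMA7 was in the RWPE1 table alone and PSMD12 in the VCaP table alone, so both stand outside the counts.

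The proteasome is the protease that degrades ubiquitin-tagged proteins. Its core particle is a barrel of outer alpha rings, which gate entry, and inner beta rings, in which PSMB5, PSMB6 and PSMB7 carry the catalytic sites. The regulatory particle binds ubiquitin chains, removes them and unfolds the substrate with a ring of ATPases. Interferon gamma is known to induce PSMB8, PSMB9 and PSMB10, which replace PSMB5, PSMB6 and PSMB7 in the immunoproteasome, and the activator subunits PSME1 and PSME2, and this form makes many of the peptides that MHC class I molecules present.

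The study raised or targeted ERG, an ETS transcription factor that many prostate cancers express through a gene fusion. RWPE1 cells are immortalised epithelial cells of a normal prostate. It was grown in KSFM medium and transfected with a GFP construct or with a GFP-ERG construct, and RNA was taken at 48 h or 72 h. VCaP is a prostate cancer line with a TMPRSS2-ERG fusion. It was grown in RPMI medium and given a lentiviral scramble shRNA or a lentiviral ERG shRNA, followed by puromycin selection at 2 mg/ml as the labels print it. Each group had 2 arrays. Transfections were in duplicate, but whether duplicate arrays come from separate cultures is not stated, so the p-values measure the spread between arrays, which may be technical. Neither the shRNA sequence nor the share of transfected cells is given in the sources used here.

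All values are normalized log2 signals of 1-colour Illumina arrays, and a change is a difference of log2 means. The ERG transcript checks the labels. In RWPE1 the dimmer of 2 ERG probes read 6.30 and 6.43 in the GFP arrays against 7.33 and 7.29 for GFP-ERG at 48 h, and 6.36 and 6.25 against 6.93 and 6.94 at 72 h. The brighter probe did not separate the groups, at 6.87 and 6.98 in GFP arrays at 48 h, 6.94 and 6.94 at 72 h, and with a GFP-ERG value below and one above each GFP pair. In VCaP the brightest ERG probe read 8.35 and 8.33 with scramble and 8.71 and 8.77 in the arrays labelled ERG shRNA, a change of 0.40 (limma, Benjamini-Hochberg adjusted p = 0.0413). The other 2 VCaP probes read 7.50 to 7.66, with overlap for one and, for the other, lower values with the ERG shRNA label by 0.04. The brightest probe goes against the label, so the VCaP values below compare 2 labels and give no direction with respect to ERG. In VCaP, 0 of 7 luminal prostate markers and 5 of 5 basal markers lay below the median of all probes, 7.75. In RWPE1, 0 of 5 basal markers and 3 of 6 luminal markers lay below its median, 7.24.

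The arrays labelled ERG shRNA also differed from each other in proteasome genes. Array 2 minus array 1 was below -0.50 for 10 of the 41 genes and above 0.50 for 3, against 613 and 491 of all 16922 genes. The median of this difference was -0.52 in the alpha ring and -0.41 in the beta ring. Between the scramble arrays 0 of the 41 genes differed by more than 0.50. The VCaP count of calls, the core ring medians and the values of several genes are therefore also given without each of the arrays labelled ERG shRNA.

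In VCaP, 4 of the 41 genes passed the threshold of an adjusted p of 0.05, all lower in the arrays labelled ERG shRNA than in the scramble arrays, and 0 were higher. They were the beta ring genes PSMB3 and PSMB6, the immunoproteasome subunit PSMB10 and the activator subunit PSME2. Of all genes, 3.49% passed in either direction, 1.68% higher and 1.81% lower. The median change of the 41 genes was -0.23, with 33 below 0, beside a median of 0.00 over all genes. The values of both arrays labelled ERG shRNA were below both scramble values for 22 of the 41 genes, and above them for 4. Of all genes, 23.9% lay wholly lower and 28.9% wholly higher.

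**Figure D1:**
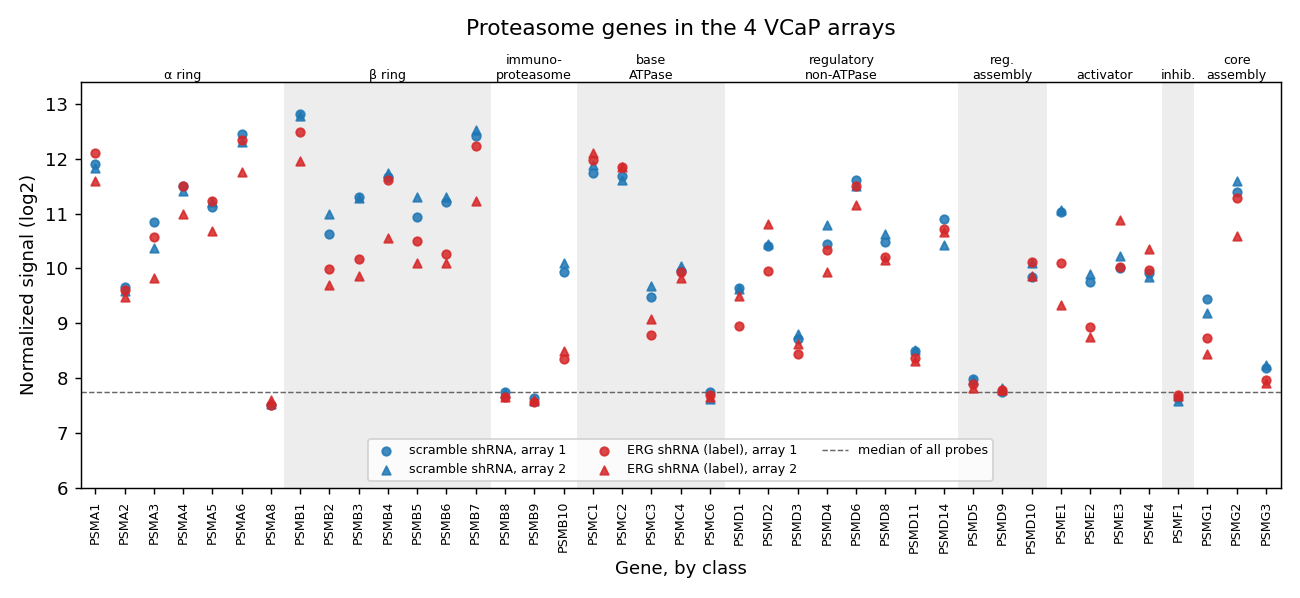
Normalized log2 signal of each proteasome gene in the 4 VCaP arrays, by class, with circles for array 1, triangles for array 2 and a dashed line at the median of all probes, 7.75. All 7 beta ring genes have both red points below both blue points, and 0 of the 7 alpha ring genes do, beside 23.9% of all genes.

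PSMB10, the immunoproteasome subunit that replaces PSMB7, read 9.94 and 10.11 in the scramble arrays and 8.35 and 8.49 in the arrays labelled ERG shRNA. Both pairs were tight and well apart. The change was -1.61 ± 0.09 (SE), or 3.05-fold lower (limma, adjusted p = 0.0293). The other immunoproteasome subunits were dim in VCaP. PSMB8 read 7.74 and 7.73 against 7.66 and 7.65, and PSMB9 read 7.64 and 7.59 against 7.56 and 7.61. Both genes lay below the median of all probes on every array, where a change in RNA can hardly show, and neither passed (adjusted p = 0.25 and 0.798).

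In the beta ring, PSMB3, a structural subunit, read 11.31 and 11.28 with scramble and 10.17 and 9.86 with the ERG shRNA label. Its change was -1.28 ± 0.13 (SE), 2.43-fold lower (limma, adjusted p = 0.0453). PSMB6, which carries the caspase-like site, read 11.21 and 11.30 against 10.26 and 10.10. Its change was -1.07 ± 0.08, 2.10-fold lower (adjusted p = 0.0323). For both genes the gap between the groups was several times the gap within a pair.

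The other catalytic subunits of the standard core did not pass the test. PSMB5, with the chymotrypsin-like site, read 10.94 and 11.31 against 10.50 and 10.09, a change of -0.82 ± 0.21 (SE, adjusted p = 0.161). PSMB7, with the trypsin-like site, read 12.41 and 12.53 against 12.24 and 11.23, a change of -0.73 ± 0.39 (adjusted p = 0.427). Most of the PSMB7 change lay in array 2 of the ERG shRNA label, and the same held for PSMB4, a structural subunit, at 11.66 and 11.73 against 11.61 and 10.56. PSMB2, a structural subunit, averaged 10.81 in the scramble arrays, which lay 0.36 apart, and read 9.99 and 9.70 with the ERG shRNA label, a change of -0.97 (adjusted p = 0.101). PSMB1, also structural, was the least changed of the ring, at 12.82 and 12.77 against 12.49 and 11.96, by -0.57 (adjusted p = 0.264). In all 7 beta ring genes both arrays labelled ERG shRNA lay below both scramble arrays, beside 23.9% of all genes. The changes in the ring ran from -1.28 to -0.57 with a median of -0.82.

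The alpha ring, which pairs with the beta ring in the core, showed a smaller median, -0.21, with changes from -0.41 to 0.04. The groups of arrays overlapped for all 7 of its genes, and 0 passed the test. An unadjusted p under 0.05 was seen for 4 beta ring and 0 alpha ring genes, beside 3651 of all 16922 genes. PSMA3 had the lowest change in the class, at 10.85 and 10.37 with scramble and 10.57 and 9.83 with the ERG shRNA label. PSMA1 read 11.91 and 11.83 against 12.11 and 11.59, so that the scramble arrays lay between the others. Its dimmer probes changed by -0.33 and -0.03. PSMA8, a testis form of an alpha subunit, was dim in both cell lines, at 7.51 and 7.53 against 7.51 and 7.60 in VCaP. The difference between the rings was not tested.

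Among the activators, PSME1 and PSME2 form the cap that interferon gamma induces. PSME2 read 9.76 and 9.90 with scramble and 8.93 and 8.75 with the ERG shRNA label, a change of -0.99 ± 0.09 (SE), 1.99-fold lower (limma, adjusted p = 0.0432). PSME1 read 11.03 and 11.07 against 10.09 and 9.34, a change of -1.34 ± 0.29, 2.52-fold lower, which missed the threshold (adjusted p = 0.126). Both PSME1 pairs stayed apart, but the arrays labelled ERG shRNA lay far from each other. PSME3, the nuclear activator, read 10.01 and 10.22 against 10.03 and 10.89, so only array 2 was high. PSME4, an activator with a role in spermatogenesis and DNA repair, read 9.91 and 9.85 against 9.96 and 10.35, a change of 0.28 (adjusted p = 0.448).

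**Figure D2:**
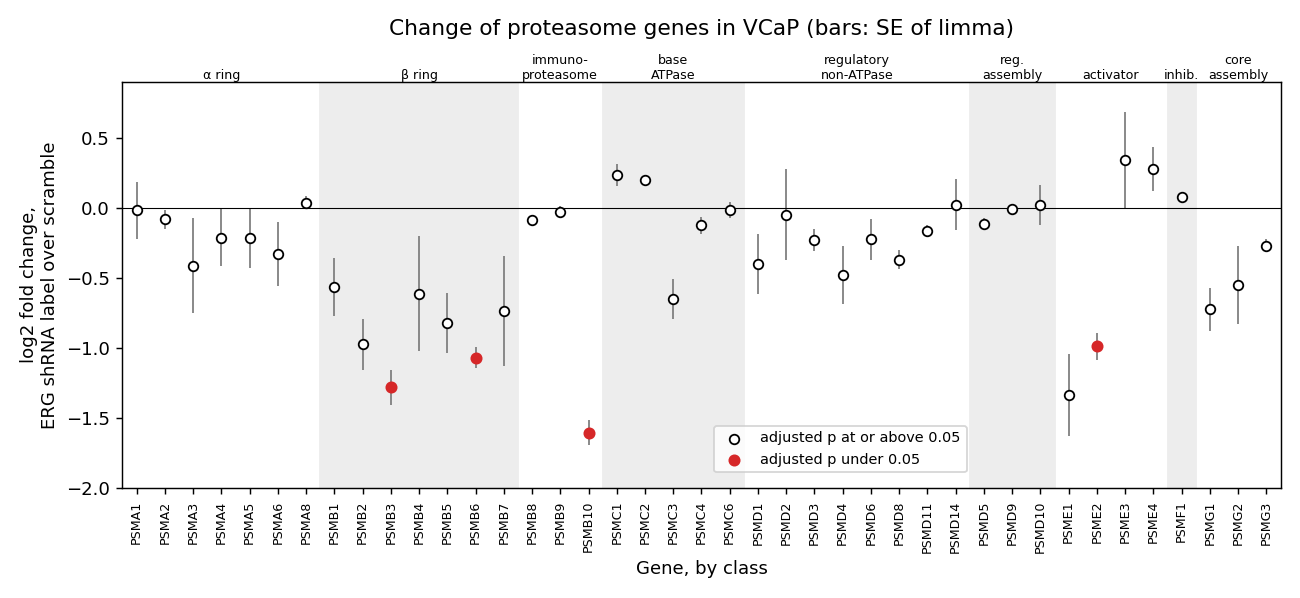
The log2 fold change of each proteasome gene in VCaP (ERG shRNA label over scramble), by class, with bars of 1 SE and filled points for an adjusted p under 0.05. The filled points are PSMB3, PSMB6, PSMB10 and PSME2, all below 0.

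In the regulatory particle, the ATPases of the base had a median change of -0.01 and differed in sign. That median is the value of PSMC6, which was dim, at 7.75 and 7.62 with scramble and 7.69 and 7.65 with the ERG shRNA label. PSMC1 read 11.75 and 11.89 with scramble and 11.99 and 12.11 with the ERG shRNA label, and PSMC2 read 11.68 and 11.62 against 11.85 and 11.85. Both were higher without overlap, by 0.23 and 0.20 (limma, adjusted p = 0.235 and 0.0972). PSMC3, another ATPase of that ring, read 9.49 and 9.69 against 8.79 and 9.09, a change of -0.65 (adjusted p = 0.125). The 8 non-ATPase subunits had a median of -0.23. PSMD4, a ubiquitin receptor, read 10.44 and 10.80 against 10.34 and 9.94, a change of -0.48 (adjusted p = 0.33). PSMD8, a lid subunit, read 10.48 and 10.63 against 10.22 and 10.16, a change of -0.37 (adjusted p = 0.0977). Both were lower without overlap. PSMD14, the deubiquitinase of the lid, read 10.89 and 10.43 against 10.71 and 10.66, inside the scramble range. PSMD2, a scaffold of the base, read 10.41 and 10.45 against 9.96 and 10.81, with the scramble arrays in between.

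The assembly chaperones of the core all lay lower without overlap, as did 23.9% of all genes, and 0 of the 3 passed. PSMG1 read 9.44 and 9.18 against 8.74 and 8.44, a change of -0.72 (limma, adjusted p = 0.119). Its dimerisation partner PSMG2 read 11.40 and 11.59 against 11.29 and 10.60, a change of -0.55 (adjusted p = 0.406). PSMG3 read 8.18 and 8.24 against 7.97 and 7.90, a change of -0.27 (adjusted p = 0.0865). The assembly chaperones of the regulatory particle, PSMD5, PSMD9 and PSMD10, ranged from -0.12 to 0.02. The inhibitor PSMF1 was dim, at 7.63 and 7.59 against 7.70 and 7.68. Of the 41 genes, 13 had an unadjusted p under 0.05, beside 3651 of all 16922 genes.

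Without array 1 of the ERG shRNA label, 14 of the 41 genes passed, 2 higher and 12 lower, beside 2254 of all 16922 genes. The beta ring median was then -1.14 and the alpha ring median -0.47. Without array 2, 7 passed, all lower, beside 1182 of all genes, and these medians were -0.62 and -0.01. PSMB5 changed by -1.03 without array 1 and -0.62 without array 2, PSMB7 by -1.24 and -0.23, and PSME1 by -1.71 and -0.96. PSME1 passed both times (adjusted p = 0.0177 and 0.0315), PSMB7 only without array 1 (0.0205 and 0.205) and PSMB5 neither time. PSMB10, PSMB3, PSMB6 and PSME2 were among the genes that passed both times, although 1 array then stood for the group and was assumed to vary like the other. Without either scramble array, 0 of the 41 genes and 0 of all 16922 genes passed, and the smallest adjusted p among all genes was 0.251 and 0.319. The log2 fold changes of the 4 genes kept their direction throughout, for example -1.69 to -1.53 for PSMB10.

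The promoters of PSMB10, PSMB3 and PSME2, which passed, and of PSME1, the partner of PSME2, which did not, are shown to place the motifs known from proteasome and interferon regulation. RefSeq promoters on GRCh38.p14 were matched for 36 of the 41 genes, PSMB6 not among them, and the 250 bases before the annotated start were searched on both strands. PSMB10 (chr16:67936851-67937100, minus strand), PSMB3 (chr17:38752491-38752740, plus strand), PSME2 (chr14:24146611-24146860, minus strand) and PSME1 (chr14:24135944-24136193, plus strand) are printed below in the direction of transcription. Capitals mark matches to the searched motifs.
PSMB10: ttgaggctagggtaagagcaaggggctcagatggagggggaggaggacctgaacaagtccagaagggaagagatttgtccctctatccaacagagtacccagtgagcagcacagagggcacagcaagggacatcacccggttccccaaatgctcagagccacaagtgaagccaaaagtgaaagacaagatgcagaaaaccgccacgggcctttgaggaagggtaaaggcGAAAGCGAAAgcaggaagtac
PSMB3: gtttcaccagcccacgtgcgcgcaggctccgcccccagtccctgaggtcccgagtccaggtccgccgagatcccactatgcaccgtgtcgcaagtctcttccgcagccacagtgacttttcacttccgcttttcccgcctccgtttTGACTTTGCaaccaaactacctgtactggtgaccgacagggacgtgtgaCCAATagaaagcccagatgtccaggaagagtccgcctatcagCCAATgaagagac
PSME2: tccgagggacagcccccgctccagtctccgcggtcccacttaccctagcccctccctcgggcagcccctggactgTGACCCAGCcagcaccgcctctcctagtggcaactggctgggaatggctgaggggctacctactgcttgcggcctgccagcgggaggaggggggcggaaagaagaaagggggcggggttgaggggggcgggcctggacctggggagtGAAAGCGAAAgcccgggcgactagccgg
PSME1: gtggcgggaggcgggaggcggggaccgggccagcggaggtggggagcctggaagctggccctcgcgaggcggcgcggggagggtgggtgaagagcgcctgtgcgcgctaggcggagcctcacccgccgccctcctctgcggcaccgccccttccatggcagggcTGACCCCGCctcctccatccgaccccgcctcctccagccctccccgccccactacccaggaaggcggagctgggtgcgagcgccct

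PSMB10 and PSME2 hold the same run, GAAAGCGAAA, 21 to 12 and 28 to 19 bases before the start. It matches the core of the interferon-stimulated response element (GAAA, any 2 bases, GAAA), a motif added to the search after these sequences were seen. That motif is in 4 of the 36 matched promoters (PSMA4, PSMB4, PSMB10 and PSME2), or 11.1%, and in 3.07% of all 27305 promoters of this length. PSMB10 and PSME2 were seen before the motif was chosen and count among the 4, so these shares are not an independent comparison. PSMB3, PSME1 and PSME2 each hold the antioxidant response element core TGACNNNGC, which NFE2L1 and NFE2L2 are known to bind. It is in 10 of the 36 promoters, or 27.8%, and in 11% of all. PSMB3 also has CCAAT at 55 to 51 and at 13 to 9 bases before the start. CCAAT is in 41.7% of the 36 and 33% of all, the ETS site CCGGAAGT in 11.1% and 3.64%, and TTCNNNGAA, the gamma-interferon activated site, in 13.9% and 6.78%. No matches overlap in the printed promoters, and CCGGAAGT is in 0 of the 4. Shorter or variant ETS sites were not searched. Variants can be read in printed promoters, PSMB10 and PSMB3 among them, and their share over all promoters was not counted. A match describes letters only.

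Genes around the proteasome were taken from lists. Among 11 measured partners without a PSM symbol, SEM1, a small lid subunit, read 12.53 and 12.69 with scramble and 11.04 and 10.88 with the ERG shRNA label. Its change was -1.65 ± 0.09 (SE), 3.14-fold lower (limma, adjusted p = 0.0293). UBE3C, a ubiquitin ligase that binds the proteasome, read 10.81 and 10.84 against 11.57 and 11.49 and was 1.63-fold higher (adjusted p = 0.0305). Of the 11, 1 passed higher and 1 lower, beside 1.68% and 1.81% of all genes, and the other partners did not pass. Nor did any of 8 shuttle and unfolding factors, 3 genes of ubiquitin and its activation, or 7 transcription factors and their processing enzymes, in which NFE2L1 changed by -0.08 and NFE2L2 by 0.03. Those lists held 2, 1 and 1 genes with an unadjusted p under 0.05, and the partners 3, beside 3651 of all 16922 genes.

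Antigen presentation genes, which act beside the immunoproteasome, gave 0 calls among 13 in VCaP. Of the 13, 5 had an unadjusted p under 0.05, beside 3651 of all 16922 genes. CALR, a chaperone of MHC class I folding, changed by -1.28 (limma, adjusted p = 0.087), TAPBP by -0.58 (adjusted p = 0.163), and TAP1 and TAP2, the peptide transporter, by -0.35 and -0.29. ERAP2, a peptide trimming enzyme, had the highest change of the list, 0.54 (adjusted p = 0.533). The median of the list was -0.01, with 4 of 13 above 0. Leukocyte markers were read because white blood cells are rich in immunoproteasome. Of 8, 7 lay below the median of all probes in VCaP, their summed log2 level ran from 61.7 to 62.4 over the 4 arrays, and 0 passed. The chaperonin, another large ring complex, had all 8 genes above 0 with a median of 0.33 and 0 calls, beside the median of -0.23 for the proteasome (4 and 13 had an unadjusted p under 0.05).

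**Figure D3:**
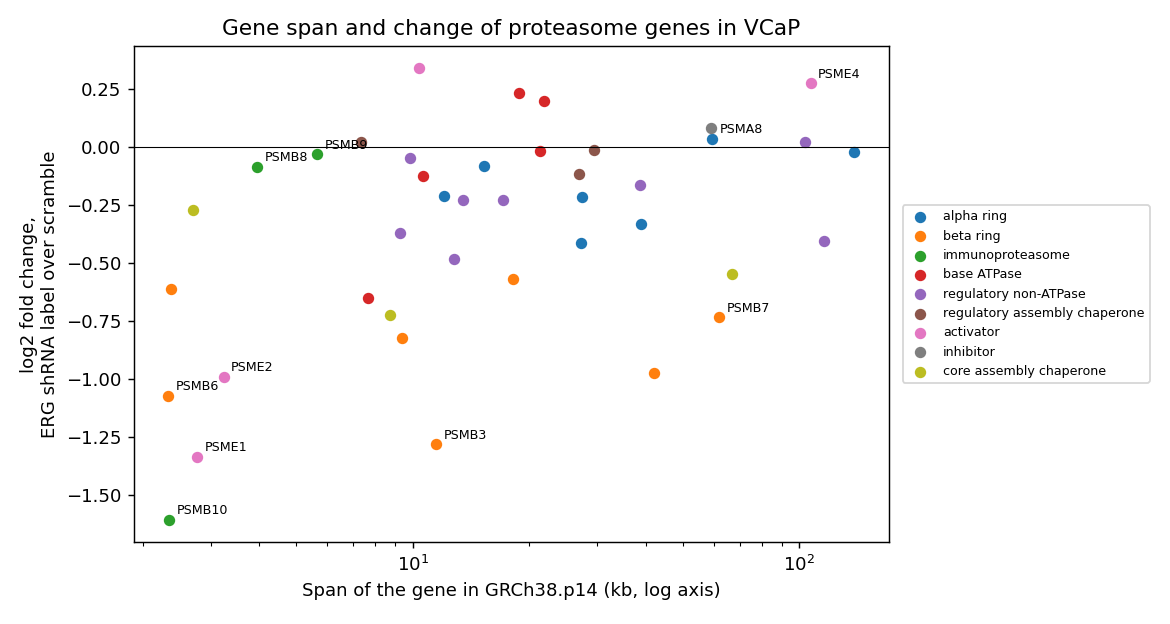
Span of each proteasome gene in GRCh38.p14 (kb, log axis) against its log2 fold change in VCaP, coloured by class. PSMB10, PSMB6, PSME1 and PSME2, of 2.35, 2.33, 2.77 and 3.25 kb, lie at the lower left. Short genes with changes near 0 (PSMB8, PSMB9) and long genes with lower values (PSMB2, PSMB7, PSMG2) are also seen.

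Gene span was set beside the VCaP changes. Over the 41 genes, the span from annotated start to end and the VCaP change had a Spearman rho of 0.39, a description over genes measured in the same arrays. Over 16907 genes with a span, rho was 0.24, so the relation was not limited to the proteasome. Leaving out genes below the probe median, it was 0.41 over 36 proteasome genes and 0.32 over 9398 genes. The median span was 11.5 kb in the beta ring and 27.4 kb in the alpha ring. PSMB8 and PSMB9, of 3.96 and 5.66 kb and dim, changed by -0.08 and -0.03. The long genes PSMB2, PSMB7 and PSMG2, of 42.0, 62.0 and 67.0 kb, changed by -0.97, -0.73 and -0.55. Span was not entered in the fit, and its part in the changes was not tested.

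In RWPE1 the proteasome hardly moved with GFP-ERG. At 48 h, 0 of the 41 genes passed (limma), beside 8.79% of all genes, 4.86% higher and 3.93% lower. An unadjusted p under 0.05 was seen for 2 of the 41, beside 3248 of all 16591 genes. At 72 h, 2 passed, both higher, beside 6.20% of all genes, 3.19% higher and 3.01% lower. As the mean of both times, 2 passed, both higher, beside 12.5% of all genes, 6.82% higher and 5.68% lower. The median change of the 41 genes was 0.00, 0.04 and 0.02, and no mean change exceeded 0.21 in size. All 4 GFP-ERG arrays lay above all 4 GFP arrays for 1 gene, PSMA6, and below them for 1, PSMC2, beside 4.14% and 3.89% of all genes.

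PSMB8, the immunoproteasome form of PSMB5, read 10.09 and 10.21 in GFP arrays at 48 h against 10.17 and 10.38 for GFP-ERG. At 72 h it read 9.91 and 9.75 in GFP arrays against 10.17 and 10.08. The groups overlapped at 48 h and were apart at 72 h, where the GFP arrays were the low ones. The change was 0.30 ± 0.08 (SE) at 72 h, 1.23-fold (limma, adjusted p = 0.0217), and 0.21 ± 0.05 as the mean of both times (adjusted p = 0.0121). The other PSMB8 probe changed by 0.09 at 48 h and 0.13 at 72 h, and with the mean of both probes the call at 72 h was lost (adjusted p = 0.0604). Without array 2 of GFP at 72 h the change was 0.22 (adjusted p = 0.324).

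PSMC4, an ATPase of the base, read 10.41 and 10.44 in GFP arrays against 10.21 and 10.41 for GFP-ERG at 48 h, and 10.26 and 10.01 against 10.56 and 10.40 at 72 h. It was 1.26-fold higher at 72 h, by 0.34 ± 0.08 (SE, limma, adjusted p = 0.0154), and changed by -0.11 at 48 h. The difference between the times, 0.45 ± 0.12, did not pass (adjusted p = 0.122). Without array 2 of GFP or array 1 of GFP-ERG at 72 h, the change at 72 h was 0.21 or 0.26 and the call was lost (adjusted p = 0.349 and 0.232). Over the set, 0 of 41 genes passed for that difference, beside 0.476% of all genes, 0.205% higher and 0.271% lower. An unadjusted p under 0.05 was seen for 4 of the 41, beside 1587 of all 16591 genes.

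PSMA6, an alpha ring subunit, read 11.50 and 11.51 in GFP arrays against 11.77 and 11.53 for GFP-ERG at 48 h, and 11.52 and 11.35 against 11.67 and 11.62 at 72 h. Every GFP-ERG array lay above every GFP array. Its mean change was 0.18 ± 0.05 (SE), 1.13-fold (limma, adjusted p = 0.0335). Leaving out 1 array gave changes from 0.12 to 0.24 (adjusted p from 0.00321 to 0.189), and the call was lost under 7 of 15 alternatives. PSMC2, an ATPase, had the opposite order in all arrays, with a change of -0.12 that did not pass (adjusted p = 0.092). It ran from 12.37 to 12.44 with GFP-ERG and from 12.51 to 12.56 with GFP.

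**Figure D4:**
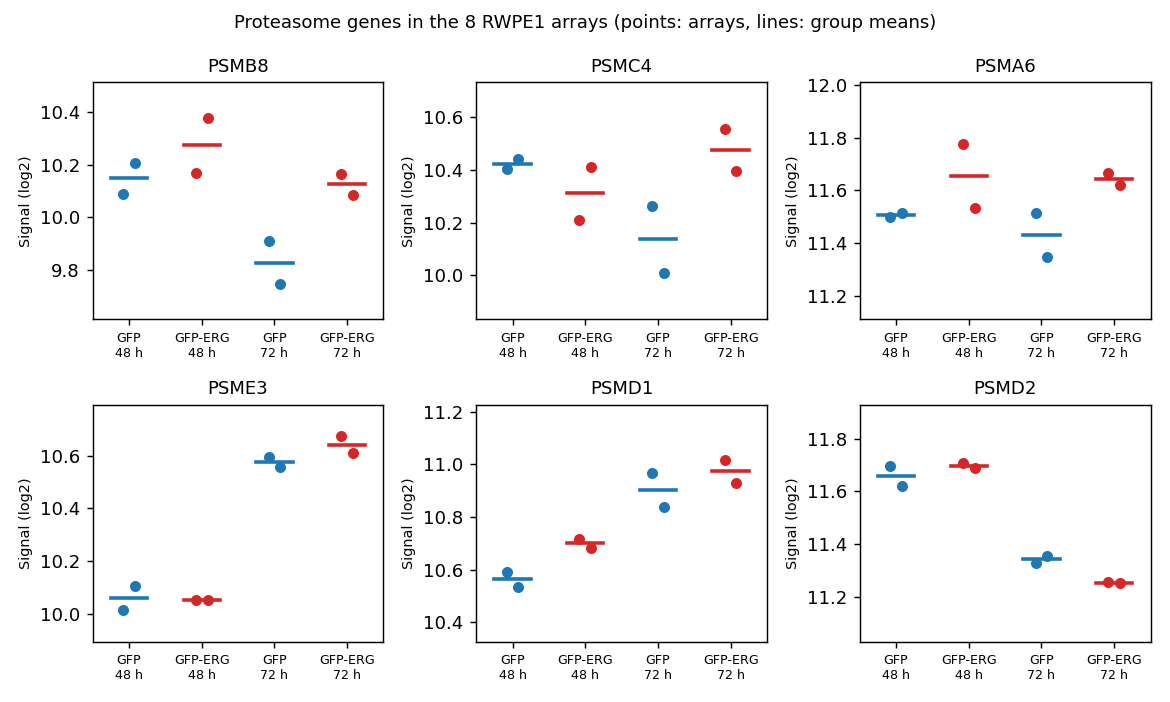
Normalized log2 signal of 6 proteasome genes in the 8 RWPE1 arrays (points) with group means (lines), GFP in blue and GFP-ERG in red. PSMB8 and PSMC4 separate at 72 h, PSME3 and PSMD1 are higher and PSMD2 lower at 72 h in both constructs.

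The genes that were lower in VCaP moved little in RWPE1. PSMB10 ran from 12.20 to 12.41 with GFP and from 12.33 to 12.42 with GFP-ERG, a mean change of 0.08 (95% confidence interval -0.03 to 0.18). PSMB3 changed by 0.03 (-0.07 to 0.13), PSMB6 by 0.04 (-0.05 to 0.14) and PSME2 by 0.11 (0.00 to 0.21, limma, adjusted p = 0.183). The catalytic subunits of the standard core were as steady: PSMB5 ran from 12.18 to 12.38 over the 8 arrays, PSMB6 from 11.28 to 11.48 and PSMB7 from 14.02 to 14.08. PSME1 ran from 13.32 to 13.47, PSME2 from 12.91 to 13.20 and the inhibitor PSMF1 from 11.57 to 11.81. PSMB9 was low, between 7.79 and 8.10. For each of these genes the GFP and GFP-ERG ranges over both times overlapped. The tables were normalized separately and use different array designs, so levels were not compared between the cell lines.

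Genes around the proteasome were read in RWPE1 as well, as the mean of both times, beside 6.82% of all genes higher and 5.68% lower. ADRM1, a ubiquitin receptor of the proteasome, and AKIRIN2, which brings proteasomes into the nucleus, were higher, 2 of 10 partners, by 0.22 and 0.17 (limma, adjusted p = 0.0027 and 0.0171). The shuttle factor RAD23B, 1 of 8 shuttle and unfolding factors, was lower, by 0.21 on the log2 scale (adjusted p = 0.0174). Of 14 antigen presentation genes, 4 were higher and 0 lower: ERAP2 by 0.41, the class I genes HLA-F and HLA-E by 0.35 and 0.25, and the peptide loading factor TAPBP by 0.32. Of 8 leukocyte markers, 5 lay below the median of all probes and CD14 alone passed, higher by 1.03. Their summed log2 level ran from 59.1 to 61.7 over the 8 arrays, and its part in the PSMB8 change was not tested.

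Between 48 h and 72 h the set was called about as often as all genes in GFP cells. With GFP-ERG its calls were mostly higher. Past the threshold were 10 of the 41 genes in GFP cells, 6 higher and 4 lower, beside 23.0% of all genes, 11.8% higher and 11.2% lower. In GFP-ERG cells 13 passed, 12 higher and 1 lower, beside 25.8% of all genes, 13.1% higher and 12.6% lower. The comparisons used separate arrays but came from the same fit, which gives a gene the same SE in both. Their calls are therefore not independent. The comparisons shared 7 called genes, which is 7 of 10 and 7 of 13. PSMA2, PSMA5, PSMD1, PSMD9, PSMD10 and PSME3 were higher and PSMD2 was lower in both. How many of all genes were called in both was not counted, so no share stands beside these 7.

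PSME3 changed most of the set. It read 10.01 and 10.10 at 48 h and 10.60 and 10.56 at 72 h with GFP, and 10.05 and 10.05 against 10.67 and 10.61 with GFP-ERG. All 72 h arrays lay above all 48 h arrays. The changes were 0.52 ± 0.06 (SE) and 0.59 ± 0.06 (limma, adjusted p = 3.4e-06 and 5.42e-07).

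PSMD1 and PSMD2, the large scaffold subunits of the base, moved in opposite directions. PSMD1 read 10.59 and 10.54 at 48 h and 10.97 and 10.84 at 72 h with GFP, and changed by 0.34 and, with GFP-ERG, by 0.27 (limma, adjusted p = 0.000691 and 0.00379). PSMD2 read 11.70 and 11.62 against 11.33 and 11.36 with GFP, and 11.71 and 11.69 against 11.25 and 11.25 with GFP-ERG. It fell by 0.32 and 0.44 on the log2 scale (adjusted p = 0.000674 and 1.52e-05). The assembly chaperones PSMD9 and PSMD10 rose in both. PSMD9 read 7.58 and 7.68 at 48 h against 7.89 and 7.91 at 72 h with GFP, and 7.64 and 7.64 against 7.97 and 7.97 with GFP-ERG. PSMD10 read 11.09 and 11.07 against 11.38 and 11.30, and 11.19 and 11.11 against 11.45 and 11.43. The changes were 0.27 and 0.32 for PSMD9 and 0.27 and 0.29 for PSMD10, with no overlap between the times, and PSMD5 passed in GFP-ERG cells, by 0.21.

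In the alpha ring PSMA2 read 9.61 and 9.83 at 48 h against 10.14 and 10.04 at 72 h with GFP, and 9.79 and 9.75 against 10.05 and 10.02 with GFP-ERG. It rose by 0.37 and 0.26, and PSMA5 by 0.18 and 0.21. The alpha subunits PSMA1 and PSMA3, the beta subunit PSMB2, the lid subunit PSMD6 and the ATPase PSMC1 passed in GFP-ERG cells, higher by 0.22, 0.21, 0.24, 0.27 and 0.17. The other PSMA1 probe, slightly dimmer, averaged 9.57 at 48 h and 9.61 at 72 h with GFP-ERG. The PSMA5 call in GFP cells (adjusted p = 0.0499) was lost under 7 of 15 alternatives and the PSMC1 call (adjusted p = 0.048) under 8 of 15, with adjusted p up to 0.227 and 0.174. The difference of these changes between GFP and GFP-ERG cells is the contrast given above for the times, in which 0 of the 41 genes passed. PSMB8, PSMC4 and PSMD4 were lower at 72 h in GFP cells, by 0.32, 0.29 and 0.20 on the log2 scale (limma, adjusted p = 0.00386, 0.0155 and 0.029). With GFP-ERG the changes of PSMB8 and PSMC4 were -0.15 and 0.16 and did not pass. The GFP arrays at 72 h enter both these values and the GFP-ERG effect of PSMB8 and PSMC4 at 72 h. Of the 14 antigen presentation genes, 7 fell with time in GFP cells, beside 11.2% of all genes, and 1, TAP2, rose by 0.21. HLA-E fell by 0.55 on the log2 scale, HLA-F by 0.48 and HLA-B by 0.47. In GFP-ERG cells 6 fell, beside 12.6% of all genes, and 0 rose. The chaperonin rose, with 4 of 8 genes called higher in GFP cells and 5 of 8 in GFP-ERG cells, beside 11.8% and 13.1% of all genes.

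**Figure D5:**
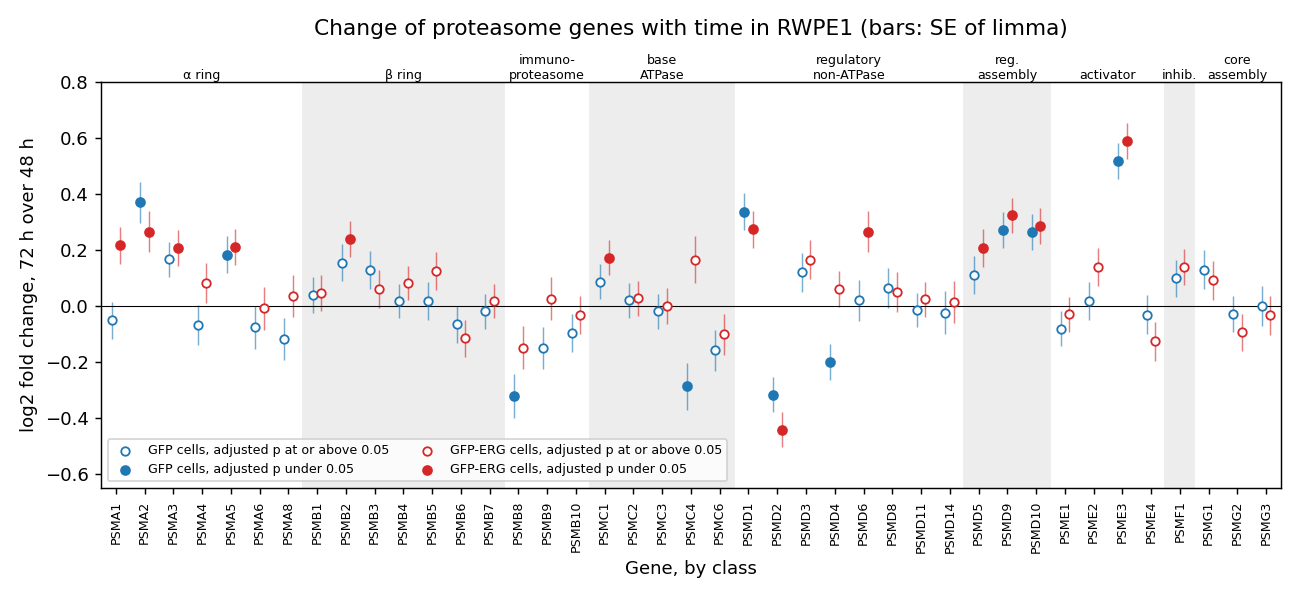
The log2 fold change of each proteasome gene from 48 h to 72 h in RWPE1, GFP in blue and GFP-ERG in red, with bars of 1 SE and filled points for an adjusted p under 0.05. PSME3 lies highest in both (0.52 and 0.59) and PSMD2 is low in both (-0.32 and -0.44).

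PSMC3IP, which is no proteasome gene but a cofactor of meiotic recombinases, matched by symbol only. It read 8.91 and 8.78 in GFP arrays against 8.45 and 8.41 for GFP-ERG at 48 h, and 8.56 and 8.76 against 8.0 and 7.99 at 72 h. Every GFP-ERG array was lower, with a mean change of -0.54 ± 0.05 (SE, limma, adjusted p = 9.28e-08). A dimmer probe of the gene changed by 0.05 and 0.04. In VCaP it read 8.75 and 8.81 with scramble and 8.10 and 8.27 with the ERG shRNA label, a change of -0.60 (adjusted p = 0.0555). PSME3IP1, the other match by symbol only, read 8.98 and 8.96 in GFP arrays against 8.76 and 8.75 for GFP-ERG at 48 h, a change of -0.22 (limma, adjusted p = 0.0311). At 72 h it read 9.13 and 9.14 against 9.19 and 9.16, and the mean of both times did not pass (adjusted p = 0.237).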

How the data were processed

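The deposited values of each table are per-probe Illumina signals, 20589 probes in RWPE1 and 24525 in VCaP, read as log2 from their range (5.95 to 15.1 and 7.44 to 15.4). The sources used here do not give the authors' software, background correction or normalization. Sorted values of the arrays of a table were nearly equal, so the deposited log2 values were used unchanged, with no floor. In VCaP the lowest signal, 7.44, lies close to the median of all probes, 7.75, which leaves little range for dim probes. Symbols came from the platform annotation (1 symbol for 18332 and 21833 probes, none for 2257 and 2692, several for 0), and Entrez identifiers in RefSeq GRCh38.p14 changed 0 symbols. A gene was read from its probe with the highest mean over the table, giving 16591 and 16922 genes; 4 of the 41 genes had several probes in RWPE1 and 10 in VCaP.

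Group means were fitted with limma 3.58.1 in R 4.3.3 (lmFit, contrasts.fit, eBayes, 2-sided), 8 RWPE1 arrays in 1 fit and 4 VCaP arrays in another, with the Benjamini-Hochberg adjustment taken over every gene of the table and a threshold of 0.05. An exact permutation test of 2 against 2 arrays cannot go below 0.333. The number of arrays limits the precision. The 7 comparisons, the alternatives (closing section), the members and the lists were chosen with earlier results of these data known. All 41 genes were open to naming. Values per array were due for genes past the threshold, for PSMB5 to PSMB10, PSME1, PSME2 and PSMF1, and for the extremes of each class, and are given in ranges where they are many. The fit was tested on simulated data. Python 3.11.15, pandas 2.3.3 and matplotlib 3.10.9 prepared tables and plots. Columns outside the series numbered 0.

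The labels share array numbers between groups. Deviations of same-numbered arrays correlated at 0.19 in VCaP and from -0.06 to 0.08 in RWPE1, and with 2 numbers the arrays were not taken as paired.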

Additional observations from a re-analysis of the deposited data

How the results depend on the processing

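With 2 arrays a group, calls rested on single arrays. In VCaP the count of called proteasome genes, 4, became 0 with array number as a replicate block (0 of all genes passed, smallest adjusted p 0.0899; PSMB10 0.0899, PSMB3 0.0923, PSMB6 0.093, PSME2 0.106), 10 with a trended and robust variance, and 0 to 14 when 1 array was left out. The same 4 genes were among the 10. The number of all genes called is not given beside the 10 or beside the RWPE1 counts below. Those counts describe only how the calls depend on the setting. The replicate block made 0, 2, 2 and 0 calls for GFP-ERG at 48 h, at 72 h, as the mean and for the difference between times, and 10 and 12 for time in GFP and GFP-ERG cells. In RWPE1 the count at 48 h, 0, was 1 with dim genes left out and 0 to 2 without 1 array. At 72 h, 2 became 1 on averaging a gene's probes and 0 to 2 without 1 array. As the mean of both times, 2 became 0 as 2 groups of 4 arrays, and 0 to 2 without 1 array. The difference between times gave 0 to 1, time in GFP cells 6 to 10 (10 with all arrays) and time in GFP-ERG cells 5 to 13 (13 with all arrays).

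Leaving out 1 VCaP array moved median changes as follows: the whole set -0.304 to -0.0844, alpha ring -0.47 to -0.01, beta ring -1.14 to -0.62, base ATPases -0.07 to 0.05, non-ATPase subunits -0.30 to -0.17, regulatory assembly chaperones -0.107 to 0.0275, activators -0.49 to -0.31, core assembly chaperones -0.87 to -0.24. The immunoproteasome median, -0.08, was -1.61 with dim genes left out, since PSMB10 alone then remained. The activator median, -0.36, was -0.20 on averaging a gene's probes, since a dim PSME1 probe then counts. The causes of the other shifts were not tested. No called gene changed sign. Medians close to 0 did: those of the base ATPases and the regulatory assembly chaperones in VCaP, and those of the set with GFP-ERG at 48 h and over time in GFP cells (the latter -0.01 to 0.03 without 1 array). Dim probes (PSMA8 in both tables, and PSMB8, PSMB9, PSMC6 and PSMF1 in VCaP) limit what can be seen.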
